A study of Gallus gallus with 4 samples.

Results

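The genes described here encode clathrin, the adaptors that link it to cargo, the vacuolar proton pump (V-ATPase) and proteins of the lysosome membrane. They were chosen by gene symbol in the platform annotation, by a rule that holds no expression values. The rule was set with earlier results of these data known. The genes comprised 60 of 13008 genes with a symbol, measured by 117 of 38382 probe sets. The samples were whole ovaries and whole testes of 17-week-old chickens of inbred CB congenic lines of White Leghorn origin. Total RNA of 16 animals was combined into 4 pools of 4 animals each, 2 of ovaries and 2 of testes, with 1 Affymetrix Chicken Genome Array per pool, so that the spread between animals was not measured. The comparison, ovary minus testis, addressed which of these genes are expressed differently between the gonads of the sexes. All values are log2 expression values as deposited, and a gene with several probe sets is represented by the one with the highest mean over all 4 arrays. A gene was called where its limma p, adjusted by Benjamini-Hochberg over all 38382 probe sets, was under 0.05.

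Clathrin forms cages of heavy and light chains around budding vesicles, and adaptor complexes choose the cargo. AP-1 works at the trans-Golgi network and endosomes, AP-2 at the plasma membrane, AP-3 on the way to lysosomes and related organelles, and AP-4 and AP-5 on routes that do not need clathrin. The V-ATPase pumps protons into endosomes and lysosomes through a membrane sector, V0, driven by an ATP-splitting sector, V1. Chicken oocytes take up yolk precursors through clathrin-coated pits, gonadal steroid-making cells draw on cholesterol that leaves lysosomes, and the sperm acrosome is an acidic, lysosome-related organelle. In whole organs, fewer cells of a type and less RNA per cell cannot be told apart, and log2 levels of different probe sets cannot be compared with each other.

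On each array 55.1% to 55.7% of probe sets exceeded log2 3.32, a background set at the 99th percentile of values from 689 probe sets for non-chicken sequences. Over probe sets the ovary pools correlated with each other at r = 0.991 and the testis pools at 0.995, and an ovary pool with a testis pool at 0.825 to 0.834. Cell markers matched the organ labels. All 5 measured oocyte markers were called higher in ovary, among them GDF9 and BTG4. Of 7 spermatid markers, 6 were called higher in testis, among them PLCZ1 and SPACA9. Over all 13008 genes, 28.7% were called toward ovary and 24.3% toward testis. The summed linear signal of the oocyte markers was 23500 and 24190 in the ovary pools, against 48.5 and 45.0 in the testis pools. That of the spermatid markers was 868 and 851 in the ovary pools, against 57600 and 58420 in the testis pools. Most of the ovary sum came from ODF2, the marker not called, at log2 9.69 and 9.66 in the ovary pools. The other spermatid markers were at or near background in ovary.

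Of the 60 genes, 27 (45.0%) were higher in ovary, 9 (15%) were higher in testis and 24 did not pass. Over all 13008 genes the shares were 28.7% and 24.3%. Counted by probe set, 43 of the 117 were higher in ovary and 11 in testis, against 7000 (18.2%) and 6666 (17.4%) of all 38382. The sets differ in brightness. Of the 117, 89 exceeded background in at least 1 pool, whereas 55.1% to 55.7% of all probe sets exceeded it on each array. The median difference of the 60 was 0.39 on the log2 scale, against 0.01 over all genes. Most calls among clathrin chains, adaptors and lysosome membrane genes were toward ovary, and V-ATPase subunits were called in both directions. Differences of at least 1 log2 unit (2-fold) were called for 16 genes toward ovary (26.7%, against 22.0% of all genes) and for 4 toward testis (6.67%, against 18.4%). Pools of the organs did not overlap for 52 of the 60 genes (86.7%, against 81.2% of all genes). Among the 53 of the 60 with a pool above background, 90.6% did not overlap, against 89.6% of all 10716 genes with such a pool. Calls toward ovary made up 50.9% of the 53, against 34.7% of the 10716, and calls toward testis 15.1%, against 29.3%. The shares of groups and lists below are set against all genes, including those at background, which lowers the reference. The count of ovary-higher genes fell to 17 without testis pool 1 and to 16 without testis pool 2, and that of testis-higher genes to 3 without either of them. Calls of 14 genes (23.3%, against 22.5% of all genes) held with every pool left out in turn, 12 of them higher in ovary and 2 in testis. Each fit with a pool left out took its spread from the other organ's pools alone, so calls lost or gained in it depend also on that spread. By the brightest probe set, 53 of the 60 had at least 1 pool above background. AP3B2, AP4M1, AP4S1, ATP6V0A4, ATP6V0D2, ATP6V1G3 and MCOLN3 were at or below it in every pool by that probe set, although a dimmer probe set of ATP6V0D2 reached 3.60 in testis pool 1, and MCOLN3 is among the 9 called toward testis.

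**Figure D1:**
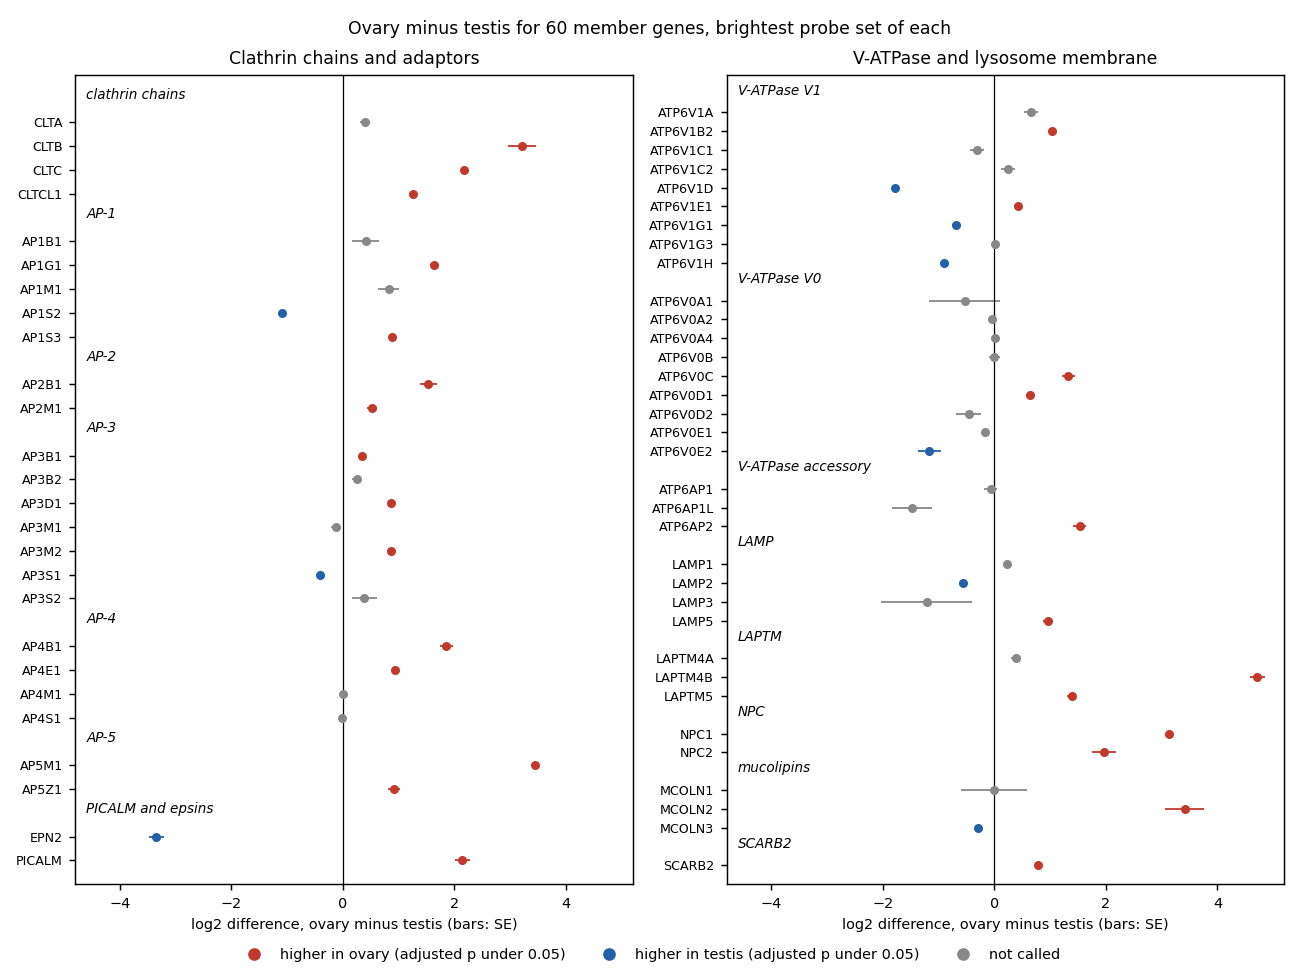
Log2 difference, ovary minus testis, of the brightest probe set of each of the 60 genes, grouped by role, with standard errors as bars. Red points (27 genes) were called higher in ovary, blue points (9 genes) were called higher in testis and grey points (24 genes) were not called.

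Of the 4 clathrin chain genes, 3 (75.0%, against 28.7% of all genes) were higher in ovary. The heavy chain gene CLTC, which encodes the leg of the clathrin triskelion, had log2 values of 12.99 and 13.11 in the ovary pools, against 10.86 and 10.88 in the testis pools. It was 4.53-fold higher in ovary (difference 2.18, SE 0.055, limma adjusted p = 0.0015). The light chain gene CLTB stood at 11.53 and 11.51 in the ovary pools, against 8.60 and 8.02 in the testis pools, the widest gap of the 4 chain genes by these probe sets (9.25-fold, difference 3.21, SE 0.25, adjusted p = 0.008). The testis pools of CLTB lay further apart (SD 0.41) than its ovary pools. CLTCL1, listed as a second heavy chain gene, averaged 11.22 ± 0.11 in ovary, against 9.96 ± 0.027 in testis (± SD over 2 pools an organ, 2.39-fold, limma adjusted p = 0.00438). The other light chain gene, the Z-linked CLTA, differed by 0.39 and did not pass (adjusted p = 0.0763). The call of CLTCL1 was lost on leaving out testis pool 1 (difference 1.27) or testis pool 2 (1.24). CLTA passed without testis pool 1 (0.50), a fit that took its spread from the ovary pools alone.

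In the AP-1 complex the large gamma subunit gene AP1G1 had log2 values of 12.43 and 12.48 in the ovary pools, against 10.90 and 10.73 in the testis pools. It was 3.12-fold higher in ovary (difference 1.64, SE 0.079, limma adjusted p = 0.00361). The 5 other probe sets of AP1G1 were not called, those above background differing by 1.49 (adjusted p = 0.142) and 1.12 (0.0501). The small sigma subunits, which help to bind sorting signals, went in opposite directions. AP1S3 stood at 9.93 and 10.04 in the ovary pools, against 9.11 and 9.12 in the testis pools, and was 1.83-fold higher in ovary (adjusted p = 0.00482). AP1S2 stood at 10.03 and 10.03 in the ovary pools, against 11.06 and 11.18 in the testis pools, and was 2.13-fold higher in testis (difference -1.09, SE 0.056, adjusted p = 0.00404). This was the 1 pair of alternative subunits of an adaptor complex or of the V-ATPase called in opposite directions, and a second probe set of AP1S2 did not pass (-0.37). The medium subunit gene AP1M1 (0.82, adjusted p = 0.071) and the beta subunit gene AP1B1 (0.40, adjusted p = 0.373) did not pass, although a dimmer probe set of AP1M1 was called higher in ovary (1.13). The call of AP1S3 was lost on leaving out testis pool 1 (difference 0.87) or testis pool 2 (0.87), with the spread taken from the ovary pools alone. AP1M1 passed in the same fits (0.60 and 1.04), in which the spread of its testis pools (SD 0.31, against 0.027 in ovary) did not enter.

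Both AP-2 genes that meet the symbol rule were higher in ovary. So was AP2A2, an AP-2 subunit gene outside the rule that is counted below with the coat partners (6.83-fold, limma adjusted p = 0.00167). AP2B1, which encodes the beta subunit that binds clathrin at the plasma membrane, had log2 values of 9.37 and 9.40 in the ovary pools, against 8.02 and 7.68 in the testis pools (2.90-fold, limma adjusted p = 0.0124). Its 4 probe sets gave different sizes. One averaged 9.62 in ovary and 5.30 in testis (19.9-fold, adjusted p = 0.000341). Another stood at 10.01 and 10.20 in the ovary pools, against 3.62 and 3.30 in the testis pools, with 1 testis pool at background (difference 6.65, SE 0.16, adjusted p = 0.00138). The last differed by 1.42 and did not pass (adjusted p = 0.062). The medium subunit gene AP2M1, whose product reads tyrosine sorting signals, was 1.43-fold higher in ovary (adjusted p = 0.0347), and its other probe set did not pass (-0.40, adjusted p = 0.661). The call of AP2B1 by its brightest probe set was lost on leaving out ovary pool 1 (adjusted p = 0.0562) or ovary pool 2 (0.0586), and that of AP2M1 with any single pool left out (0.0891 to 0.13).

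PICALM, which encodes the clathrin assembly protein CALM, had log2 values of 12.94 and 13.04 in the ovary pools, against 10.70 and 11.00 in the testis pools. It was 4.41-fold higher in ovary (difference 2.14, SE 0.13, limma adjusted p = 0.00557). EPN2 encodes epsin 2, which bends membrane at coated pits, and its probe sets disagreed. The brightest of its 5 probe sets stood at 9.01 and 8.69 in the ovary pools, against 12.20 and 12.19 in the testis pools, and was 10.2-fold higher in testis (difference -3.35, SE 0.14, adjusted p = 0.00282). Probe sets of the same gene with differences of 1.19 (adjusted p = 0.00132), 1.05 (0.00971) and 0.74 (0.0244) were called higher in ovary, and 1 was not called (0.33, adjusted p = 0.479). EPN2 was the 1 gene among the 27 with several probe sets that had calls in both directions, so that its direction depends on the probe set. The call of the brightest probe set was lost on leaving out testis pool 1 (adjusted p = 0.0548) or testis pool 2 (0.056). Of the 13 genes for clathrin chains, AP-1, AP-2, PICALM and epsin, 8 (61.5%) were called toward ovary, 2 (15.4%) toward testis and 3 in neither direction, against 28.7% and 24.3% of all genes. All 13 had a pool above background, and over all genes with such a pool the shares were 34.7% and 29.3%.

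**Figure D2:**
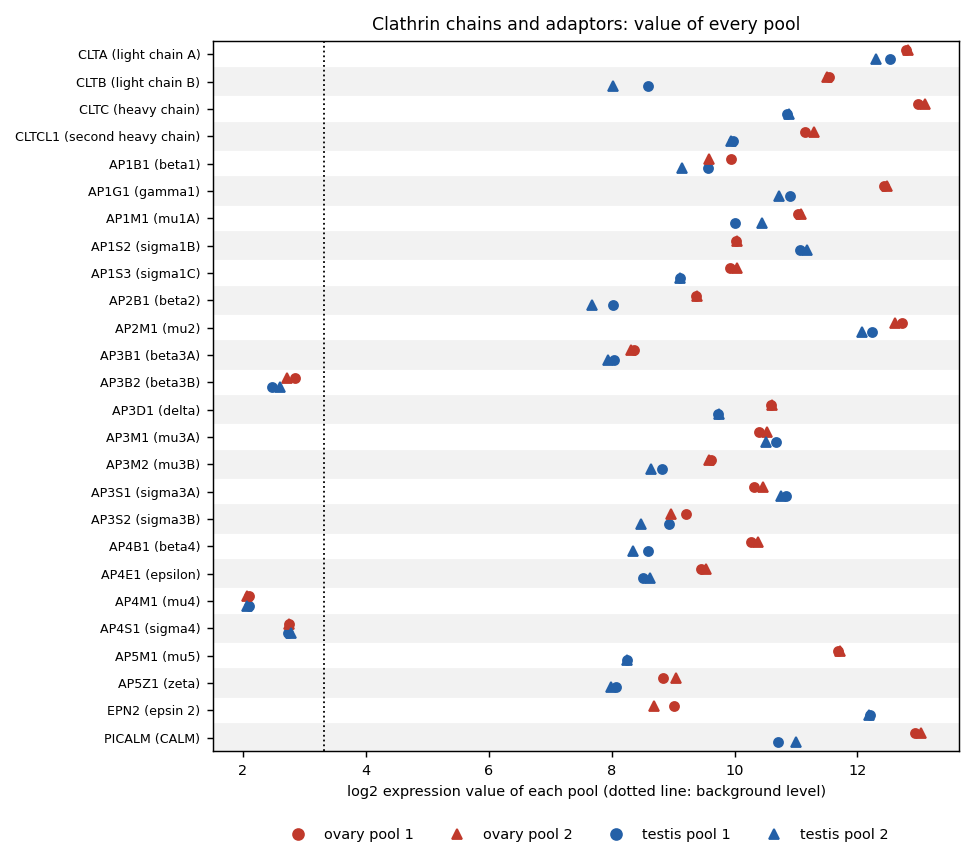
Log2 value of every pool for the 26 genes of clathrin chains and adaptors, with ovary pools in red above testis pools in blue and the background level of 3.32 as a dotted line. CLTC, CLTB, AP5M1 and PICALM show wide gaps with ovary higher, EPN2 shows one with testis higher by this probe set, and AP3B2, AP4M1 and AP4S1 lie left of the line.

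In the AP-3 complex the called differences of the brightest probe sets were below 1 log2 unit. AP3D1, the delta subunit gene, had values of 10.60 and 10.60 in the ovary pools, against 9.73 and 9.75 in the testis pools (1.82-fold, SE 0.020 log2, limma adjusted p = 0.00134). The 5 further probe sets of AP3D1 were not called, and those above background went both ways (-0.71, -0.27, 0.28 and 0.0012). For the one at -0.71, pools of the organs did not overlap, with testis higher. By the mean over its probe sets AP3D1 had no call, so that its call rests on the brightest probe set. AP3M2, a medium subunit gene, averaged 9.60 ± 0.021 in ovary, against 8.74 ± 0.12 in testis (± SD over 2 pools an organ, limma adjusted p = 0.0105), and its other probe sets were called higher in ovary by 1.14 and 1.48. Its paralogue AP3M1 did not pass (-0.13, adjusted p = 0.436) and its pools overlapped between the organs. The Z-linked genes of the complex went apart by their brightest probe sets. The beta subunit gene AP3B1 was 1.27-fold higher in ovary (adjusted p = 0.0311). Its other probe set did not pass (-0.013, adjusted p = 0.928) and had overlapping pools. The sigma subunit gene AP3S1, at 10.32 and 10.46 in the ovary pools, against 10.84 and 10.75 in the testis pools, was 1.32-fold higher in testis (adjusted p = 0.039), and its paralogue AP3S2 did not pass (0.38, adjusted p = 0.374). The calls of AP3B1 and AP3S1 ended with any single pool left out (adjusted p = 0.0682 to 0.127 and 0.0572 to 0.215), and that of AP3M2 with ovary pool 1 (0.053) or ovary pool 2 (0.0513) left out. AP3B2, whose mammalian counterpart is a neuronal form, was at or below background in every pool.

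All 4 genes called in AP-4 and AP-5 were higher in ovary. AP4B1, the beta subunit gene of AP-4, stood at log2 10.26 and 10.39 in the ovary pools, against 8.59 and 8.35 in the testis pools (3.62-fold, SE 0.12 log2, limma adjusted p = 0.00587), and both its probe sets were called. AP4E1, the epsilon subunit gene, averaged 9.50 ± 0.062 in ovary, against 8.56 ± 0.079 in testis (± SD over 2 pools an organ, limma adjusted p = 0.00633), again in both probe sets. AP4M1 and AP4S1 were at or below background in every pool. AP5M1, which encodes the medium subunit of AP-5, had the widest gap of all adaptor genes toward ovary by the brightest probe set. Its values were 11.68 and 11.71 in the ovary pools, against 8.24 and 8.25 in the testis pools, a difference of 3.45 (SE 0.024, 10.9-fold, adjusted p = 0.000393). A second probe set gave 3.42 (adjusted p = 0.00467) and the third lay at or below background. AP5Z1, the zeta subunit gene, was 1.89-fold higher in ovary (adjusted p = 0.0152). The call of AP4E1 was lost on leaving out testis pool 1 (adjusted p = 0.0575) or testis pool 2 (0.0531), as was that of AP5Z1 (0.124 and 0.133). Of the 13 genes of AP-3, AP-4 and AP-5, 7 (53.8%) were called toward ovary, 1 (7.69%) toward testis and 5 in neither direction, against 28.7% and 24.3% of all genes.

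Most V-ATPase genes had no call, and the calls went both ways at rates below those of all genes. Of 21 genes, 5 (23.8%) were called toward ovary, 4 (19.0%) toward testis and 12 in neither direction, against 28.7% and 24.3% of all genes, with a median difference of -0.04. In the V1 sector the B subunit gene ATP6V1B2, part of the ATP-binding ring, had log2 values of 12.36 and 12.46 in the ovary pools, against 11.36 and 11.39 in the testis pools (2.04-fold, SE 0.049 log2, limma adjusted p = 0.00361). The catalytic A subunit gene ATP6V1A differed by 0.65 and just missed the threshold (adjusted p = 0.0517), and ATP6V1E1, which encodes a peripheral stalk subunit, was 1.34-fold higher in ovary (adjusted p = 0.031). Genes of subunits D, G and H were higher in testis. ATP6V1D, which encodes the central rotor shaft, stood at 11.76 and 11.84 in the ovary pools, against 13.58 and 13.59 in the testis pools. It was 3.45-fold higher in testis (difference -1.79, SE 0.039, adjusted p = 0.00127), in the only probe set of the gene above background. ATP6V1G1, another peripheral stalk gene, stood at 13.34 and 13.18 in the ovary pools, against 13.91 and 13.97 in the testis pools (1.60-fold higher in testis, adjusted p = 0.0143). ATP6V1H, which encodes a regulatory subunit, stood at 9.84 and 9.99 in the ovary pools, against 10.86 and 10.76 in the testis pools (1.86-fold higher in testis, adjusted p = 0.0106). Pools of the organs did not overlap for these 3 genes, nor for 81.2% of all genes. The paralogues ATP6V1C1 (-0.31, adjusted p = 0.223) and ATP6V1C2 (0.24, adjusted p = 0.299) did not pass, although 1 probe set of ATP6V1C2 was called higher in ovary. ATP6V1G3, a kidney form in mammals, was at or below background. The call of ATP6V1B2 was lost on leaving out testis pool 1 (adjusted p = 0.059) or testis pool 2 (0.0588), as were those of ATP6V1G1 (0.119 and 0.127) and ATP6V1H (0.101 and 0.0905), and that of ATP6V1E1 with any single pool left out (0.0606 to 0.122).

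In the V0 sector ATP6V0C, which encodes the proton-carrying ring subunit, had log2 values of 13.47 and 13.74 in the ovary pools, against 12.25 and 12.31 in the testis pools (2.50-fold, SE 0.12 log2, limma adjusted p = 0.0103). A dimmer probe set of the gene was also called higher in ovary (at least 3.03-fold, testis being at background, adjusted p = 0.0154), and 4 others were at or below background. ATP6V0D1, the gene of the coupling subunit d, was 1.56-fold higher in ovary (adjusted p = 0.0192). ATP6V0E2, a small membrane subunit gene, stood at 9.29 and 9.03 in the ovary pools, against 10.52 and 10.13 in the testis pools, and was 2.25-fold higher in testis (difference -1.17, SE 0.20, adjusted p = 0.0391). Its paralogue ATP6V0E1 (-0.17, adjusted p = 0.178) and the second ring gene ATP6V0B (-0.0036, adjusted p = 0.99) did not pass. The a subunits direct the pump to a membrane, and ATP6V0A2 did not pass (-0.04, adjusted p = 0.282). For ATP6V0A1 the brightest probe set stood at 9.80 and 8.32 in the ovary pools, against 9.71 and 9.48 in the testis pools, so that the ovary pools lay on both sides of the testis pools (adjusted p = 0.652). It passed without ovary pool 1 (-1.27), a fit in which the spread came from the testis pools alone. Another probe set of ATP6V0A1, at 9.55 and 9.40 in the ovary pools, against 7.20 and 7.40 in the testis pools, was called 4.53-fold higher in ovary (adjusted p = 0.0037). The forms ATP6V0A4 and ATP6V0D2, known in mammals from kidney and from osteoclasts and kidney, were at or below background in every pool by their brightest probe sets. The calls of ATP6V0C (adjusted p = 0.114 and 0.108) and ATP6V0D1 (0.131 and 0.145) ended without testis pools 1 and 2, and that of ATP6V0E2 with any single pool left out (0.0865 to 0.15).

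Among accessory proteins ATP6AP2, the prorenin receptor gene whose product also helps assemble the pump, had log2 values of 12.96 and 12.89 in the ovary pools, against 11.28 and 11.52 in the testis pools. It was 2.88-fold higher in ovary (difference 1.53, SE 0.11, limma adjusted p = 0.00716). ATP6AP1, the gene of the accessory subunit Ac45, differed by -0.07 (adjusted p = 0.777) and its pools overlapped between the organs. The Z-linked ATP6AP1L was at 7.19 and 6.36 in the ovary pools, against 8.18 and 8.33 in the testis pools, and did not pass (-1.47, adjusted p = 0.0795). It passed with ovary pool 1 (-1.89) or ovary pool 2 (-1.06) left out, with the spread taken from the testis pools alone. Its ovary pools lay further apart (SD 0.58) than its testis pools (SD 0.11).

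**Figure D3:**
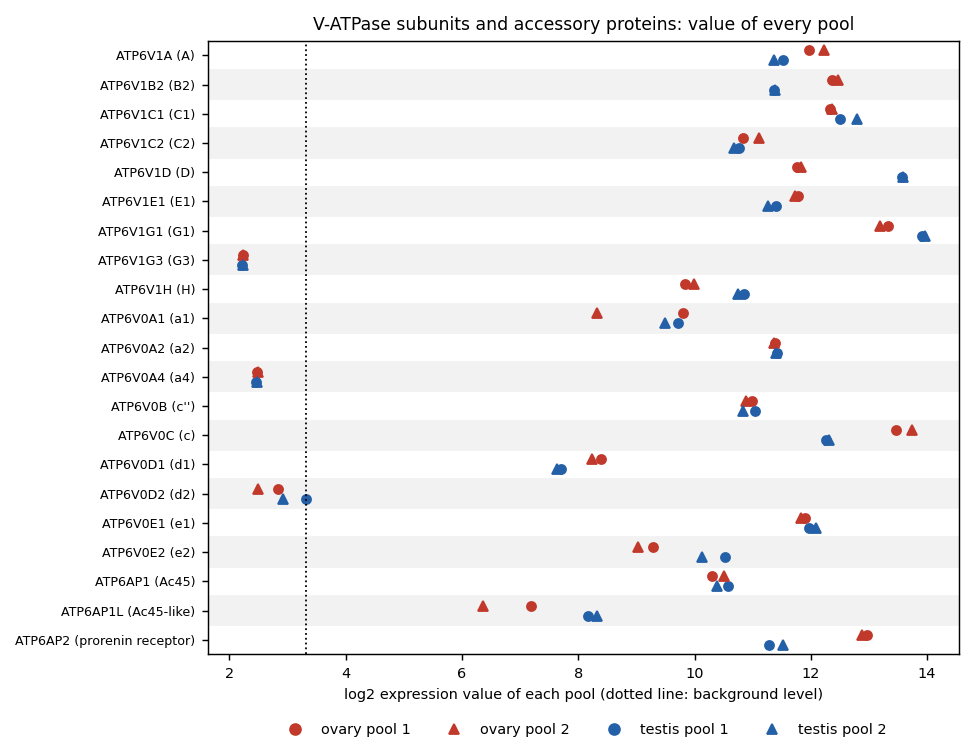
Log2 value of every pool for the 21 V-ATPase genes, with ovary pools in red above testis pools in blue and the background level of 3.32 as a dotted line. ATP6V1B2, ATP6V0C and ATP6AP2 were higher in ovary, ATP6V1D, ATP6V1G1, ATP6V1H and ATP6V0E2 were higher in testis, and ATP6V0A1 shows ovary pools on both sides of the testis pools.

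Of 13 lysosome membrane genes, 7 (53.8%) were called toward ovary, 2 (15.4%) toward testis and 4 in neither direction, against 28.7% and 24.3% of all genes. The cholesterol exporters were among those with wide gaps. NPC1, the membrane protein that takes cholesterol out of lysosomes, had log2 values of 14.35 and 14.46 in the ovary pools, against 11.28 and 11.27 in the testis pools (8.78-fold, difference 3.13, SE 0.050, limma adjusted p = 0.000849). Its second probe set gave a difference of 3.58 (adjusted p = 0.00143). NPC2, the soluble partner that hands cholesterol to NPC1, stood at 11.02 and 10.76 in the ovary pools, against 9.14 and 8.71 in the testis pools (3.90-fold, SE 0.22 log2, adjusted p = 0.016). The call of NPC2 ended with any single pool left out (0.0511 to 0.0845), while that of NPC1 held. SCARB2, which encodes the receptor LIMP-2 that carries glucocerebrosidase to lysosomes, averaged 7.57 ± 0.012 in ovary, against 6.80 ± 0.042 in testis (± SD over 2 pools an organ, 1.71-fold, limma adjusted p = 0.0029). Of 5 markers of steroid-making cells, 4 (80.0%, against 28.7% of all genes) were higher in ovary and STAR did not pass (limma adjusted p = 0.0634). Their summed linear signal was 30070 and 27470 in the ovary pools, against 4635 and 3074 in the testis pools. The adrenal markers CYP21A1 and MC2R, given below, were also higher in ovary. The part of steroid-making cells in the differences of NPC1 and NPC2 was not tested.

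The LAPTM family, of small multi-pass proteins that bind ubiquitin ligases, held the gene with the widest gap of all 60 by the brightest probe sets. LAPTM4B had log2 values of 8.60 and 8.28 in the ovary pools, against 3.72 and 3.73 in the testis pools, a difference of 4.72 (SE 0.14, 26.3-fold, limma adjusted p = 0.00178). The testis values lay above the background level but below the highest probe sets for non-chicken sequences on those arrays (3.82 and 3.88). Its close relative LAPTM4A differed by 0.38 and did not pass (adjusted p = 0.0626). A dimmer probe set of LAPTM4A was called higher in ovary (0.22, adjusted p = 0.0484) and another did not pass (0.46, adjusted p = 0.107). LAPTM5, a form known from blood cells, stood at 8.44 and 8.49 in the ovary pools, against 7.17 and 6.99 in the testis pools (2.61-fold, SE 0.080 log2, adjusted p = 0.00484). Leukocyte markers were called in both directions. Of 13 measured, 6 (46.2%) were higher in ovary and 3 (23.1%) in testis, against 28.7% and 24.3% of all genes. Among them were CSF1R, higher in ovary (8.45-fold, adjusted p = 0.00712), and CYBB, higher in testis (at least 25.7-fold, adjusted p = 0.00286). CD4 and CD79B were at or below background. Their summed linear signal was 14210 and 13140 in the ovary pools, against 7389 and 6042 in the testis pools. Most of that sum came from CD74, at log2 13.42 and 13.25 in the ovary pools, against 12.38 and 12.07 in the testis pools. The part of leukocytes in the difference of LAPTM5 was not tested. The call of CYBB was lost on leaving out testis pool 1 (adjusted p = 0.0512) or testis pool 2 (0.0502).

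LAMP proteins form the heavily sugar-coated lining of the lysosome, and the called differences of their brightest probe sets were below 1 log2 unit. LAMP1 differed by 0.23 and did not pass (limma adjusted p = 0.0826). LAMP2, which also serves chaperone-mediated autophagy, stood at log2 9.78 and 9.63 in the ovary pools, against 10.29 and 10.24 in the testis pools, and was 1.48-fold higher in testis (adjusted p = 0.021). Of its 5 probe sets 3 were called higher in testis. The widest difference, -1.35, was in a probe set whose ovary pools and testis pool 1 were at or below background (at least 1.14-fold). LAMP5, a brain form in mammals, averaged 5.86 ± 0.11 in ovary, against 4.91 ± 0.075 in testis (± SD over 2 pools an organ, 1.94-fold higher in ovary, limma adjusted p = 0.00973). LAMP3, a dendritic cell form in mammals, was at 3.41 and 2.82 in the ovary pools, against 5.24 and 3.42 in the testis pools, and did not pass (adjusted p = 0.426). The calls of LAMP2 (adjusted p = 0.164 and 0.144) and LAMP5 (0.0956 and 0.0861) ended without testis pools 1 and 2.

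Mucolipins are cation channels that release calcium from endosomes and lysosomes. MCOLN2 had log2 values of 10.62 and 10.65 in the ovary pools, against 6.82 and 7.62 in the testis pools (10.6-fold, difference 3.41, SE 0.34, limma adjusted p = 0.0131). The testis pools differed widely but both lay far below ovary. MCOLN3, which lies 1 gene away from MCOLN2 on chromosome 8 in assembly GRCg7b, stood at 2.13 and 2.13 in the ovary pools, against 2.39 and 2.47 in the testis pools. It was called higher in testis (adjusted p = 0.0217) with all values at or below background, so that no fold is given. MCOLN1, the general lysosomal form, was at 5.87 and 4.53 in the ovary pools, against 5.39 and 5.01 in the testis pools, with overlapping pools (adjusted p = 1). The call of MCOLN2 was lost on leaving out ovary pool 1 (adjusted p = 0.0584) or ovary pool 2 (0.0599), and that of MCOLN3 without the same pools (0.106 and 0.106).

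**Figure D4:**
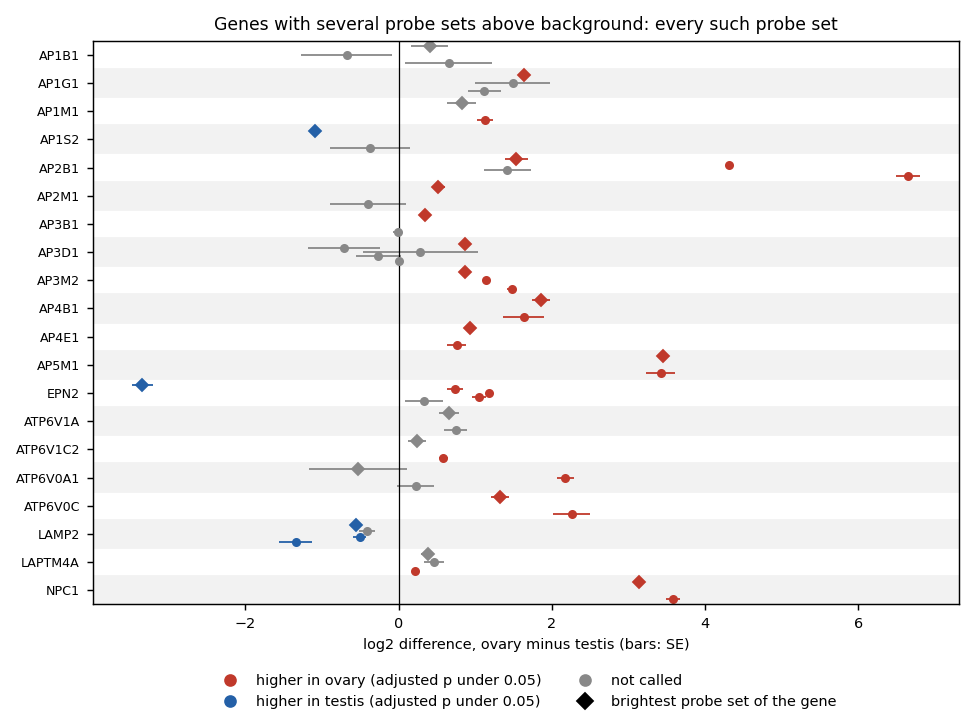
Log2 difference, ovary minus testis, of every probe set with a pool above background for the 20 genes that had several of them, with standard errors as bars and a diamond for the brightest probe set. Probe sets of NPC1, AP5M1, AP4B1 and AP3M2 lie together, those of AP2B1 spread from 1.42 to 6.65, and those of EPN2 lie on both sides of 0.

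Of the 60 genes, 4 are Z-linked. Birds carry a pair of Z chromosomes in males and a single one in females. By the brightest probe sets CLTA and ATP6AP1L did not pass, AP3B1 was called toward ovary and AP3S1 toward testis. Of 604 Z-linked genes in all, 101 (16.7%) were called toward ovary and 252 (41.7%) toward testis, with a median difference of -0.39.

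Genes that work with the coat but fall outside the symbol rule were called in both directions. Of 42 measured, 17 (40.5%) were called toward ovary and 6 (14.3%) toward testis, against 28.7% and 24.3% of all genes, with a median of 0.21. DAB2, an adaptor for receptors of the low-density lipoprotein receptor family, was at least 143-fold higher in ovary (limma adjusted p = 0.000304). CLBA1, a clathrin-binding protein gene, was higher by at least 124-fold (adjusted p = 0.000698), and SNAP91, which encodes the relative of CALM known from nerve terminals, at least 8.34-fold (adjusted p = 0.00159). Toward testis, DNM3, a dynamin gene, differed at least 35.3-fold (adjusted p = 0.000304). AMPH, which encodes the membrane-bending amphiphysin, differed at least 3.68-fold in the same direction (adjusted p = 0.0021), and FCHO2, whose product helps start coated pits, 4.5-fold (adjusted p = 0.00253). All 6 calls held with every pool left out.

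Of 11 measured subunits outside the symbol rule, assembly factors and regulators of the V-ATPase, 3 (27.3%) were called toward ovary and 6 (54.5%) toward testis, against 28.7% and 24.3% of all genes, with a median of -0.27. ROGDI, which belongs to the complex that rejoins V1 and V0 (3.83-fold, limma adjusted p = 0.0031), and the TLDc-domain genes OXR1 (2.52-fold, adjusted p = 0.008) and NCOA7 (1.6-fold, adjusted p = 0.0356) were higher in ovary. TMEM199, which encodes an assembly factor, was 3.35-fold higher in testis (adjusted p = 0.00101). The rabconnectin genes DMXL2 (2.69-fold, adjusted p = 0.00461) and DMXL1 (at least 6.92-fold, adjusted p = 0.0193) went the same way as TMEM199. The remaining calls toward testis were small: TMEM9 (-0.27), TMEM9B (-0.38) and WDR7 (at least 1.27-fold, ovary being at background). None of these remaining calls held with every pool left out in turn. The calls of ROGDI (0.0569 and 0.0585), OXR1 (0.0631 and 0.0565) and NCOA7 (0.205 and 0.198) ended without testis pools 1 and 2, and that of DMXL1 without ovary pools 1 and 2 (0.079 and 0.0788).

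Other lysosome membrane genes were called near the rate of all genes, 12 of 41 (29.3%) higher in ovary and 8 (19.5%) in testis, with a median of 0.06. Toward ovary were the cation channel genes TPCN2 (23.2-fold, limma adjusted p = 0.0109) and TPCN3 (18.3-fold, adjusted p = 0.00405) and the amino acid transporter gene SLC36A1 (16.4-fold, adjusted p = 0.023). Its relative SLC36A4 (9.63-fold, adjusted p = 0.00769), the acetyltransferase gene HGSNAT (7.22-fold, adjusted p = 0.00129) and the cholesterol sensor gene GPR155 (6.94-fold, adjusted p = 0.024) were higher in testis. The calls of SLC36A1 and GPR155 ended with any single pool left out (adjusted p = 0.0538 to 0.0889 and 0.0692 to 0.0971), that of TPCN2 without ovary pool 2 (0.052) and that of SLC36A4 without testis pools 1 and 2 (0.0928 and 0.0965).

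Soluble lysosomal hydrolases, listed with activators and a few other enzymes, were called in both directions. Of 36, 13 (36.1%) were called toward ovary and 6 (16.7%) toward testis, against 28.7% and 24.3% of all genes, with a median of 0.39. Toward ovary were the phospholipase gene PLA2G15 (9.55-fold, limma adjusted p = 0.000963), the sulfatase gene IDS (4.57-fold, adjusted p = 0.0026) and the peptidase gene TPP1 (4.39-fold, adjusted p = 0.0263). The glycosidase genes IDUA (at least 3.9-fold, adjusted p = 0.0107) and GALC (5.58-fold, adjusted p = 0.00729) and the prenylcysteine oxidase gene PCYOX1 (4.06-fold, adjusted p = 0.00225) were higher in testis. The calls of TPP1 (adjusted p = 0.0996 and 0.0964) and IDUA (0.0507 and 0.0516) ended without ovary pools 1 and 2.

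Regulators of lysosome genes and of mTORC1, the growth kinase complex that sits on the lysosome surface, were listed together with BORCS and BLOC1S genes. Of the 23 genes of this list, 12 (52.2%) were higher in ovary and 3 (13%) in testis, against 28.7% and 24.3% of all genes, with a median of 0.77. MITF, a transcription factor gene of the family that switches on lysosome genes, was at least 25.6-fold higher in ovary (limma adjusted p = 0.00164). LAMTOR3, a gene of the Ragulator scaffold, was 5.66-fold higher in ovary (adjusted p = 0.00235) and TSC1, a brake on mTORC1, 4.85-fold (adjusted p = 0.00897). The kinase gene MTOR (2.82-fold, adjusted p = 0.00375), its partner MLST8 (2.42-fold, adjusted p = 0.00939) and BLOC1S2 (2.99-fold, adjusted p = 0.00803) were higher in testis. The calls of TSC1 (0.0795 and 0.0892), MTOR (0.0545 and 0.0527), MLST8 (0.0767 and 0.068) and BLOC1S2 (0.0924 and 0.0969) ended without testis pools 1 and 2.

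**Figure D5:**
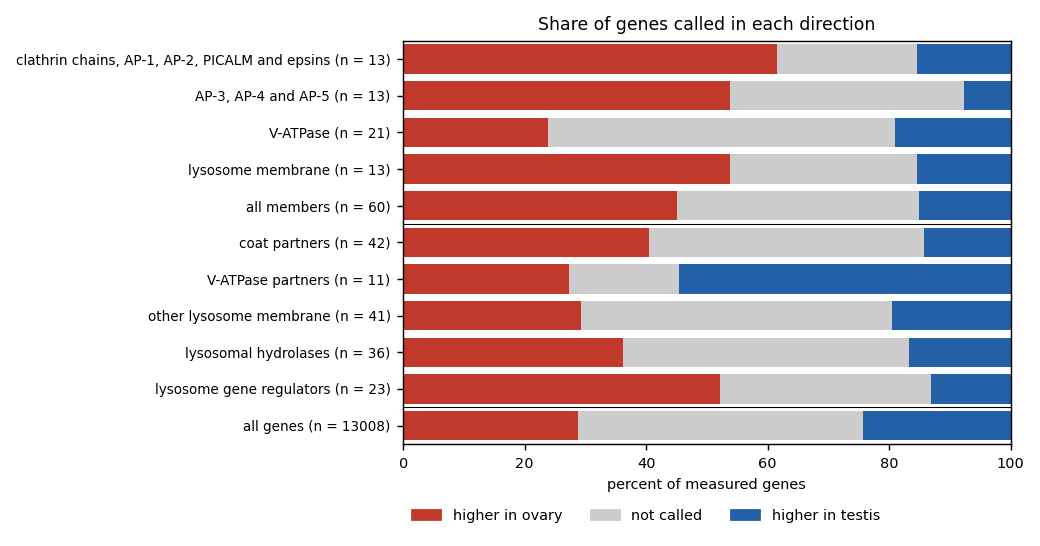
Percent of measured genes called higher in ovary (red), not called (grey) and called higher in testis (blue) for the 60 genes by role, for 5 lists of genes that work with them, and for all 13008 genes. Clathrin and adaptor genes show ovary-higher shares of 61.5% and 53.8%, V-ATPase genes 23.8% and all genes 28.7%.

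Markers of other cell types also differed between the pools. Higher in ovary were 4 of 5 granulosa cell markers, 6 of 7 nerve and chromaffin cell markers and 2 of 4 osteoclast markers, with the osteoclast genes DCSTAMP and MMP9 at or below background. Higher in testis were 3 of 4 Sertoli cell markers. Over all genes 28.7% were called toward ovary and 24.3% toward testis. Calls of the osteoclast markers CA2 and CALCR did not hold with every pool left out in turn. Nor did some granulosa, nerve and chromaffin cell calls. The remaining granulosa cell marker, INHA, was called toward testis by at least 7.4-fold (limma adjusted p = 0.00919, up to 0.0816 with a pool left out). The remaining Sertoli cell marker, GSTA3, was called toward ovary by 2.99-fold (adjusted p = 0.00413). The summed linear signal of the genes listed as granulosa cell markers was 23180 and 23610 in the ovary pools, against 4517 and 3084 in the testis pools. Most of it came from AMH (log2 13.28 and 13.43) and CYP19A1 (13.37 and 13.30) in the ovary pools. In the testis pools most came from AMH (12.04 and 11.47). CYP19A1 is also counted among the markers of steroid-making cells, so the sum does not measure granulosa cells alone. That of the nerve and chromaffin cell markers was 15270 and 12470 in the ovary pools, against 149 and 115 in the testis pools, and that of the Sertoli cell markers 937 and 900 in the ovary pools, against 21940 and 20960 in the testis pools. Of 5 markers of kidney and adrenal gland, 2 adrenal ones, CYP21A1 and MC2R, were higher in ovary and the kidney gene UMOD was higher in testis. Their summed signal was 2344 and 1745 in the ovary pools, against 189 and 183 in the testis pools. The part of these cell types in the differences of clathrin, V-ATPase and lysosome genes was not tested.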

How the data were processed

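The authors deposited 1 log2 expression value per probe set and array. The submitters' processing notes name GCRMA and MAS5, without saying which made these values or giving a version, and the values were used as deposited. Per the labels, RNA was pooled before hybridisation. Of 38535 probe sets, 153 controls were left out and 38382 were fitted in R 4.3.3 with lmFit and eBayes of limma 3.58.1 (two-sided tests, 2 residual and 0.741 prior degrees of freedom), with Benjamini-Hochberg adjustment and a threshold of 0.05. All p-values reflect the spread between pools of these arrays, which may be partly technical, and the small number of arrays limits precision. An exact permutation test with 2 pools an organ has p = 0.333 as its smallest value. With a pool left out, the spread came from the other organ's pools, and the lone pool was assumed to vary like them. Where an organ was at or below background in both pools, a fold is given as "at least", the brighter organ's mean against the background level. Data over 38382 probe sets were also simulated with few changes added. The fit recovered 10 of 67 changes of log2 size 1, 17 of 67 of size 2 and 31 of 66 of size 4. Those were the only changes simulated, whereas 35.6% of probe sets were called in the real comparison. The adjustment is stricter where fewer probe sets change, so these counts do not measure the sensitivity of the calls.

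Symbols came from the platform annotation, and all 60 genes were matched by gene number to the GRCg7b gene table, used for chromosomes and gene order only. Genes, lists and the background level were chosen with earlier results of these data known. All 60 genes were named, with pool values for the 12 largest called differences per direction and for alternative subunits called in opposite directions. In each list of partners up to 3 called genes per direction were named, and in marker lists up to 2 with the largest differences. AP2A2, CD74, UMOD, STAR, INHA, GSTA3, AMH, ODF2, TMEM9, TMEM9B, WDR7 and genes at background were named after their values were seen. Alternatives were a pool left out, the pool number as a block, a filter on dim probe sets, a floor at background, 3 forms of moderation, quantile normalization, median centring and the mean over a gene's probe sets.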

Additional observations from a re-analysis of the deposited data

How the results depend on the processing

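With any 1 pool left out, probe sets higher in ovary numbered 3734 to 6449 and probe sets higher in testis 4053 to 6007, against 7000 and 6666 with all pools. Of the 60 genes, 16 to 20 were then higher in ovary and 3 to 8 in testis. Without moderation there were 4570 probe sets higher in ovary, 4284 probe sets higher in testis and, of the 60 genes, 19 higher in ovary and 4 higher in testis. With the pool number as a replicate block there were 5874 probe sets higher in ovary, 5506 probe sets higher in testis, and 26 and 6 of the 60 genes, although the numbers pair nothing in the labels and the correlation between organs of pool 1 minus pool 2 over probe sets was 0.052. Under the other alternatives 24 to 29 of the 60 genes were higher in ovary and 6 to 10 in testis. Differences that changed sign belonged to genes with no call, and the cause was not tested. Under median centring AP4M1 differed by 0.066, AP4S1 by 0.060, ATP6V0A2 by 0.025, ATP6V0B by 0.066, ATP6AP1 by 0.0022 and MCOLN1 by 0.069, and under quantile normalization MCOLN1 differed by 0.11. The mean over its probe sets gave ATP6V0A1 a difference of 0.62, again with no call. With 1 pool left out the differences ran from -0.017 to 0.010 for AP4M1, from -0.033 to 0.015 for AP4S1, from -0.00043 to 0.023 for ATP6V1G3, from -1.27 to 0.21 for ATP6V0A1, from -0.10 to 0.10 for ATP6V0B, from -0.17 to 0.037 for ATP6AP1 and from -0.67 to 0.67 for MCOLN1. The dim filter left no value for genes at background, and differences of exactly 0 under the floor were not counted. Values near background limit what can be said of LAMP3, MCOLN3 and the testis level of LAPTM4B.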
